A study of Equus caballus with 4 samples.

Results

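The matrix proteases and their inhibitors described here were 10 genes: the ADAMTS proteases ADAMTS1, ADAMTS2, ADAMTS3 and ADAMTS5, the matrix metalloproteinases MMP1, MMP2 and MMP14, and the tissue inhibitors TIMP1, TIMP2 and TIMP3. Their probes were taken from the array by exact gene symbol, and 38 of the 43603 gene probes carried one of these symbols. These 38 probes belonged to 9 of the 10 genes. No probe carried the symbol ADAMTS2. A set of 5 probes under a transcript accession was described in the files as ADAMTS2, and its values are given separately and are not counted among the 38.

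The cells were equine satellite cells, the stem cells of skeletal muscle, isolated from the m. semitendinosus of 6-month-old stallions and studied on day 3 of differentiation on plates coated with collagen I. The treated group received gamma-oryzanol (GO, ferulic acid esters of rice bran oil) at 0.125 µM for 24 h, with hydrogen peroxide (H2O2) at 3 mM during the last 1 h. The control group was kept without GO. Whether it was given H2O2 is not in the labels, while the methods of the study describe H2O2 in both arms and the DMSO vehicle in the control medium. The labels call the 4 samples biological replicates, but per its methods the study chose the best of its primary lines, so these may be cultures from a single animal, and the p-values measure the spread between them. On every array RNA of treated cells was labelled red (Cy5) and RNA of control cells green (Cy3). The dyes were not swapped on any array, so dye and treatment cannot be told apart. All 4 arrays lay on 1 slide.

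ADAMTS and MMP enzymes are zinc proteases that cut collagens, proteoglycans and other proteins outside the cell, and TIMPs block their active sites. ADAMTS1 and ADAMTS5 cut versican, a proteoglycan of the matrix around fusing myoblasts, whereas ADAMTS2 and ADAMTS3 remove the amino-terminal propeptide of fibrillar procollagens. MMP1 is a collagenase, MMP2 a gelatinase, and MMP14 a membrane-bound collagenase that activates the MMP2 proenzyme on the cell surface together with TIMP2. In skeletal muscle such proteases are known for opening the matrix around satellite cells during migration and fusion.

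Only a single member probe passed the test, and it was higher in treated cells. ADAMTS3 probe 3 had a log2 ratio of treated over control of 0.20 ± 0.01 (SD, n = 4), a 1.15-fold difference. Of the 38 probes, 27 were well above background on all 4 arrays in at least 1 channel and were tested, and they covered 8 genes. The other 11 probes, which were 3 of ADAMTS3 and all 8 of MMP1, were too dim. Of the 27 tested probes 1 passed (3.7%), whereas of all 24230 tested probes on the array 17.1% did (9.49% higher and 7.59% lower), in limma with Benjamini-Hochberg adjustment at 0.05. An unadjusted p under 0.05 was found for 3 member probes, and for 36.7% of all tested probes. The median log2 ratio was 0.0004 over the 27 member probes and 0.003 over all tested probes, and the median SD over arrays was 0.0899 and 0.0934. Among the members 14 means were above 0 and 13 below, and 5 (18.5%) kept 1 sign across the 4 arrays, against 43.8% of all tested probes. Many member probes overlap within a gene, by up to 59 bases in TIMP1, TIMP2 and TIMP3. The shares of member probes are therefore not shares of independent measurements. At the brightest tested probe per gene, ADAMTS3 alone of the 8 tested genes passed, beside 17.1% of 13692 gene names on the array.

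**Figure D1:**
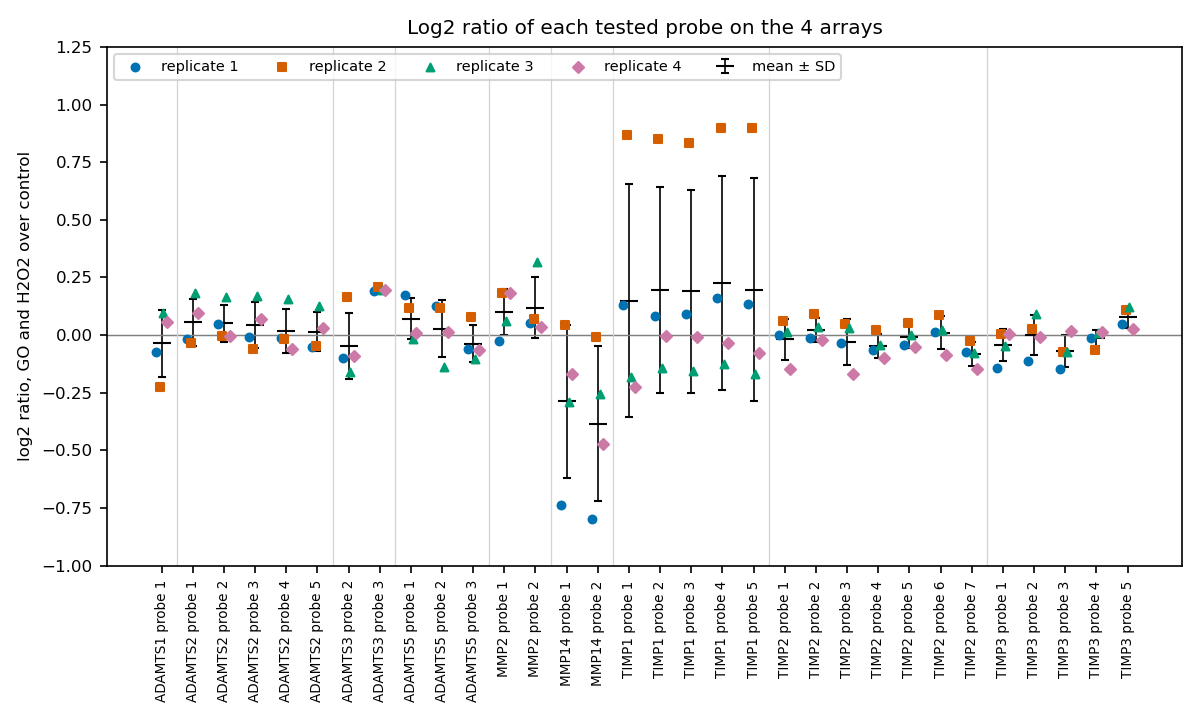
Log2 ratio of treated over control (vertical axis) on each of the 4 arrays for the 27 tested member probes and the 5 probes described as ADAMTS2, with the mean and SD. The 4 points of ADAMTS3 probe 3 lie between 0.19 and 0.21, the MMP14 probes are lowest on replicate 1, and all TIMP1 probes are highest on replicate 2, between 0.83 and 0.90.

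The 5 ADAMTS3 probes are shown first because neighbouring probes overlap, while only probes 2 and 3, which share no bases, were tested. Bases that a probe shares with an overlapping probe are in capitals, all others in lower case, and each probe is written 5′ to 3′ as in the scanner files. Probes 1 and 2 share 20 bases, probes 3 and 4 share 17, and probes 4 and 5 share 30. Joined, probes 3 to 5 make a stretch of 133 bases with 1 reading frame free of stop codons. All 5 lie on the minus strand of chromosome 3 in the design build EquCab1, and the files do not say in which exon.
ADAMTS3 probe 1: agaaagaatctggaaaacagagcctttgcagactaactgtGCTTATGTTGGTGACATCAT
ADAMTS3 probe 2: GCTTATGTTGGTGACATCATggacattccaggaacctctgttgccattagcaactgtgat
ADAMTS3 probe 3: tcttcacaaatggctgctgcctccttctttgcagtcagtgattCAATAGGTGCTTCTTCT
ADAMTS3 probe 4: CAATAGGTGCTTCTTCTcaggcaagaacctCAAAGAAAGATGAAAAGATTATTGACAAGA
ADAMTS3 probe 5: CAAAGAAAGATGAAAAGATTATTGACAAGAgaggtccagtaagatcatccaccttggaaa

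ADAMTS3 probe 3, at chr3:36232105-36232164, had log2 ratios of 0.19, 0.21, 0.19 and 0.20 on replicates 1 to 4. The treated spot signals were 380, 407, 359 and 321 fluorescence units, and the control signals 302, 317, 284 and 285. All arrays thus lay on the same side, and their spread was small beside the median SD of all tested probes. Its adjusted p was 0.0229 in limma, with a 95% interval of 0.11 to 0.28 on the log2 scale. The call was lost without replicate 1 (adjusted p = 0.0967), without replicate 3 (adjusted p = 0.0676) and without replicate 4 (adjusted p = 0.0911), at means of 0.20 in each case. It was also lost with the 2 channels as separate samples (adjusted p = 0.245), with median centring (adjusted p = 0.784) and in the methods' t-test (adjusted p = 0.0505). Fewer probes of the whole array passed in these runs than the 4137 under the main processing. Without replicates 1, 3 and 4 they were 2, 38 and 0. With the 2 channels as separate samples 594 passed, with median centring 12, and in the methods' t-test 5.

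Of the other ADAMTS3 probes only probe 2 was tested, and it did not show this difference. Probe 2, at chr3:36477432-36477491, had log2 ratios of -0.10, 0.16, -0.16 and -0.09, with a mean of -0.05 (adjusted p = 0.606 in limma). Its 95% interval, from -0.19 to 0.10, lay below that of probe 3, and its treated signal passed as well above background on 3 arrays. Replicate 2 lay above 0 and the other arrays below. Probe 4, at chr3:36232062-36232121, was well above background on replicate 2 alone, in both channels, with 91.3 units in treated and 112 in control. Probe 1, at chr3:36477472-36477531, and probe 5, at chr3:36232032-36232091, were not well above background on any array. Their treated signals ran from 59.3 to 74.4 units. Averaged over the 2 tested probes, the ADAMTS3 log2 ratio was 0.08 (adjusted p = 0.241 in limma over gene means).

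The versican-cleaving proteases ADAMTS1 and ADAMTS5 did not pass the test on any probe. The genes lie close together on chromosome 26. The ADAMTS1 probe, at chr26:17571447-17571506, had log2 ratios of -0.07, -0.22, 0.10 and 0.06, so that the arrays fell on both sides of 0. Its mean was -0.04 ± 0.14 (SD, n = 4; adjusted p = 0.697 in limma), and the 95% interval ran from -0.18 to 0.11. The 3 ADAMTS5 probes had means of 0.07, 0.03 and -0.04 (adjusted p = 0.309, 0.739 and 0.576 in limma), with SDs from 0.08 to 0.12. Probes 1 and 2 of ADAMTS5 share 37 bases, and both were positive on replicates 1, 2 and 4 and negative on replicate 3. The third, at chr26:17488023-17488082, shares none with them and was above 0 on replicate 2 only. The intervals of the 3 probes together ran from -0.15 to 0.18.

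The 5 probes described as ADAMTS2, at chr14:2531576-2531639, are shifted by 1 base from each other and so read a single site. Their treated signals ran from 2851 to 6407 units and their control signals from 2091 to 5318. Log2 ratios were highest on replicate 3 in all 5 probes, between 0.13 and 0.18, and lay between -0.06 and 0.09 on the other arrays. The means were 0.01 to 0.06 with adjusted p from 0.449 to 0.842 in limma, and the widest bounds of their intervals were -0.10 and 0.18.

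MMP14 had the largest mean differences among the members under the main processing, lower in treated cells, and neither probe passed the test. Its probes lie on unplaced sequence, probe 1 at chrUn:181651916-181652448, where the span exceeds the probe because the match is split, and probe 2 at chrUn:181651392-181651451. They do not overlap, and each has at least 1 reading frame without a stop codon.
MMP14 probe 1: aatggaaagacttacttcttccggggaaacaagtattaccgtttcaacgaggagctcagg
MMP14 probe 2: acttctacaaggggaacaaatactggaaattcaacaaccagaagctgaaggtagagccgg

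MMP14 probe 1 gave 136, 145, 92.0 and 205 units in treated cells on replicates 1 to 4, and 259, 152, 136 and 248 units in control cells. Its log2 ratios were -0.74, 0.04, -0.29 and -0.17. Replicate 1 was the lowest, and replicate 2 was close to 0. The mean of -0.29 ± 0.33 (SD, n = 4), 1.22-fold lower, had an adjusted p of 0.127 in limma and a 95% interval from -0.57 to -0.01.

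MMP14 probe 2 gave 98.6, 93.5, 73.6 and 104 units in treated cells and 214, 125, 124 and 178 units in control cells. The log2 ratios were -0.80, -0.01, -0.26 and -0.47, again lowest on replicate 1 and near 0 on replicate 2. The mean was -0.38 ± 0.34 (SD, n = 4), 1.31-fold lower, with an adjusted p of 0.0668 in limma and an interval from -0.67 to -0.10. It was the only tested member probe with a mean difference of at least 1.3-fold. On replicate 3 its treated signal was not well above background, so it was tested through the control channel, where it is higher. The filter on both channels left it out. On replicate 1 only 35 of all tested probes had a lower ratio than probe 1, and 28 a lower ratio than probe 2.

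The size of the MMP14 difference moved with the processing and with single arrays. With no background correction the means were -0.34 and -0.52 (adjusted p = 0.143 and 0.0464 in limma), and with normexp at offset 0 they were -0.39 and -0.57 (adjusted p = 0.127 and 0.0615). On Agilent's processed signals, which also differ in dye normalisation, they were -0.75 and -1.11 (adjusted p = 0.0865 and 0.0693). Without replicate 2 both probes passed, at -0.40 and -0.51 (adjusted p = 0.0472 and 0.0249). Without replicate 1 they were at -0.14 and -0.25 (adjusted p = 0.294 and 0.171). The mean stayed below 0 for both probes in every alternative run that tested them.

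MMP2, whose proenzyme MMP14 activates, had 2 probes with means slightly above 0. They are printed because they read separate parts of the gene, at chr3:7652059-7652350 and chr3:7659687-7663766, each span longer than the probe because the match is split.
MMP2 probe 1: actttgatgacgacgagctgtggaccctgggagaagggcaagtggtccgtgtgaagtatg
MMP2 probe 2: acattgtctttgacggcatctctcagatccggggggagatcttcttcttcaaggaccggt
Probe 1 had log2 ratios of -0.02, 0.18, 0.06 and 0.18, and probe 2 of 0.05, 0.07, 0.32 and 0.04. The highest arrays therefore differed between the probes, replicates 2 and 4 for probe 1 and replicate 3 for probe 2. The means were 0.10 ± 0.10 and 0.12 ± 0.13 (SD, n = 4), with adjusted p of 0.192 and 0.184 in limma. Without background correction probe 1 passed, at 0.18 (adjusted p = 0.0404).

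MMP1, the interstitial collagenase, was not well above background on any array in either channel with any of its 8 probes. Probes 1 to 5 are shifted by 1 base along chr7:9337815-9337878, and probes 6, 7 and 8 lie at chr7:9335112-9335171, chr7:9334853-9334912 and chr7:9334793-9334852. The treated signals of all 8 probes ran from 47.3 to 69.4 units over local backgrounds of 39 to 55. The control signals ran from 58.4 to 96.6 units over backgrounds of 40 to 58.5. The normalised log2 ratios of these dim spots lay between -0.26 and 0.24 and are not read as differences. No fold change is given for MMP1.

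**Figure D2:**
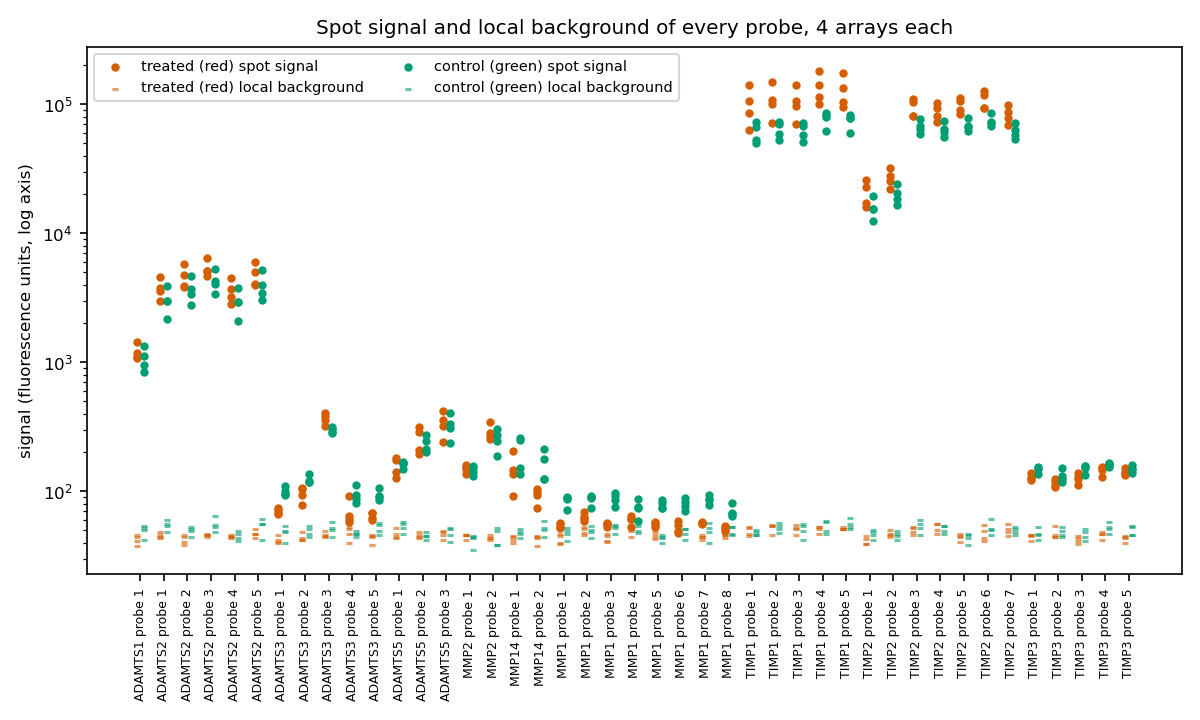
Spot signal and local background (vertical axis, fluorescence units, log axis) of the 38 member probes and the 5 probes described as ADAMTS2, with 4 points per channel, 1 per array. The MMP1 spots lie between 47.3 and 96.6 units, close to their local backgrounds of 39 to 58.5, and levels are not comparable between probes.

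TIMP1, an inhibitor of most MMPs, had 5 probes that did not pass the test and that were set apart by replicate 2. They are shifted by 1 base along chrX:28755136-28755199, so they read a single site. All 5 contain the letters AATAAA, the common form of the polyadenylation signal, which 8.64% of all gene probes on the array contain on the sense strand. The brightest, probe 4, gave treated signals of 142000, 181400, 100100 and 113000 units and control signals of 85990, 62070, 79810 and 83310 units. Replicate 2 had both the highest treated and the lowest control signal.

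Over the 5 TIMP1 probes the log2 ratios were 0.08 to 0.16 on replicate 1, 0.83 to 0.90 on replicate 2, -0.18 to -0.13 on replicate 3 and -0.22 to -0.01 on replicate 4. On replicate 2 between 38 and 56 of all tested probes had a higher ratio than a TIMP1 probe. The means were 0.15 to 0.23 with SDs of 0.44 to 0.51, adjusted p from 0.344 to 0.564 in limma and intervals reaching from -0.26 to 0.61. Without replicate 2 the means were -0.09 to 0.00, and with median centring in place of loess they were 0.36 to 0.46 (adjusted p from 0.772 to 0.795). No gene spot was flagged as saturated. The 405 tested probes with a mean log2 signal above 16, where the TIMP1 probes lie, had a median log2 ratio of 0.06 on replicate 2 and of 0.13 to 0.14 on the other arrays. The TIMP1 ratios on replicate 2 lay above that median, and their cause was not tested.

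TIMP2, which inhibits MMP2 and also takes part in its activation by MMP14, showed means close to 0 on all 7 probes. Probes 3 to 7 are shifted by 1 base along chr11:2643354-2643417 and all contain AATAAA, whereas probe 1, at chr11:2633428-2633487, and probe 2, at chr11:2641586-2641645, lie upstream and have an open reading frame. The treated signals of the 7 probes ran from 16130 to 126600 units and the control signals from 12500 to 85430. Single ratios lay between -0.17 and 0.09, and on replicate 2 the probes lay between -0.03 and 0.09. The means were -0.08 to 0.02, with SDs of 0.05 to 0.10 and adjusted p from 0.188 to 0.892 in limma. The intervals together ran from -0.18 to 0.12, which under the main processing is 1.13-fold lower to 1.09-fold higher. With median centring in place of loess all 7 means were above 0, between 0.07 and 0.23 (adjusted p from 0.787 to 0.925).

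TIMP3, which binds to the matrix and also inhibits ADAMTS proteases, had 5 overlapping probes at chr28:30920379-30920444. Treated signals were 107 to 153 units and control signals 119 to 166 units, well above background on all arrays in both channels. Single log2 ratios ran from -0.15 to 0.12. Probe 5 was above 0 on all 4 arrays, at 0.05, 0.11, 0.12 and 0.03, and probe 3 below 0 on replicates 1 to 3. The 5 means were -0.07 to 0.08, with SDs of 0.04 to 0.08 and adjusted p from 0.207 to 0.995 in limma. The intervals together ran from -0.17 to 0.17.

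**Figure D3:**
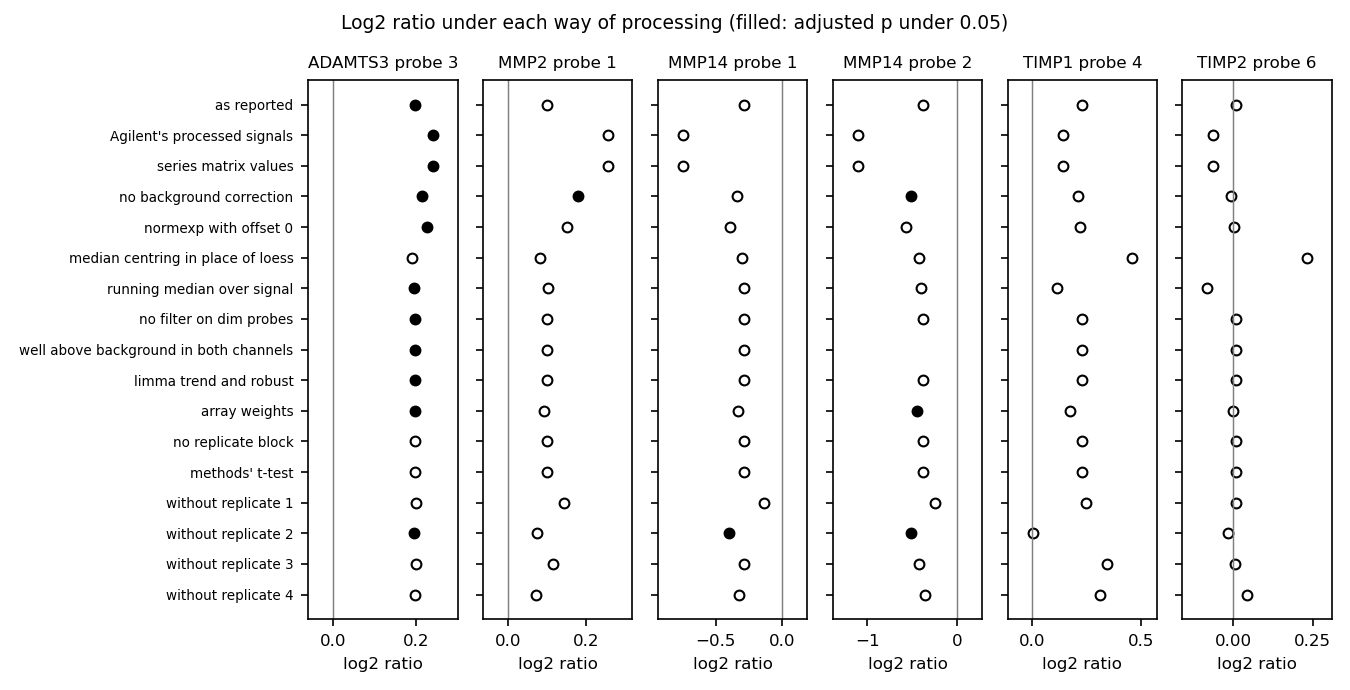
Mean log2 ratio (horizontal axis, with its own scale in each panel) of 6 probes under each way of processing, from the values as reported to those that leave out 1 replicate. Filled points have an adjusted p under 0.05. ADAMTS3 probe 3 stays between 0.19 and 0.24, both MMP14 probes stay below 0, and TIMP1 probe 4 is at 0.00 without replicate 2.

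The wider matrix turnover genes were described with the brightest tested probe of each gene. Of 82 listed genes 71 were on the array and 33 were tested, and 3 rose and 2 fell, 15.2% of the tested genes. Over the whole array, with 1 probe per gene name, 17.1% of 13692 genes passed (9.93% higher and 7.16% lower). The median log2 ratio of the 33 genes was 0.03. Of the 15 other ADAMTS proteases all were on the array and 1 was tested, and it did not pass. Of 19 other MMPs on the array 6 were tested and 1 rose. Of 6 tested ADAM proteases 1 rose. Among 6 tested genes of plasminogen activation and proprotein processing 1 fell. Among 7 tested regulators and clearance receptors 1 rose, and among 4 tested proteoglycans 1 fell. The 2 tested inhibitors and the single tested ADAMTS-like gene did not pass.

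The largest rise in these lists was that of BSG, basigin, a membrane glycoprotein known to induce MMP production. Its log2 ratios were 0.57, 0.29, 0.50 and 0.58, with a mean of 0.49 ± 0.13 (SD, n = 4; adjusted p = 0.0136 in limma). ADAM12, a metalloprotease of fusing myoblasts, rose by 0.25 ± 0.13 (adjusted p = 0.0352 in limma), a call lost with the 2 channels as separate samples (adjusted p = 0.182). MMP16, a membrane-type MMP, rose by 0.33 ± 0.09 (adjusted p = 0.0166 in limma), but its control signal was well above background on 1 array only, so that it was tested through the treated channel, where it is higher. It was left out by the filter on both channels, under which 4 of 30 genes passed. Its log2 ratio ran from 0.06 with a running median over signal taken off (adjusted p = 0.383) to 0.91 on Agilent's processed signals (adjusted p = 0.0265).

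LUM, lumican, a small leucine-rich proteoglycan of collagen fibrils, had the largest fall in these lists. Its log2 ratios were -0.55, -0.34, -0.36 and -0.47, with a mean of -0.43 ± 0.10 (SD, n = 4; adjusted p = 0.0131 in limma), and all 6 of its probes passed. PCOLCE2, an enhancer of procollagen C-proteinase, fell by 0.26 on the log2 scale at the brighter of its 2 tested probes (adjusted p = 0.0466 in limma). The other probe did not pass. The PCOLCE2 call was lost on Agilent's processed signals (adjusted p = 0.0515), with normexp at offset 0 (adjusted p = 0.0539) and with the 2 channels as separate samples (adjusted p = 0.0704). Median centring also removed it (adjusted p = 0.769). VCAN, the versican gene and a substrate of ADAMTS1 and ADAMTS5, was at -0.26, -0.53, 0.02 and -0.03 and did not pass (adjusted p = 0.166 in limma). Without replicate 1, 3 or 4 none of the 33 genes passed, and the whole array then gave 2, 38 and 0 calls. With median centring and in the methods' t-test none of them passed either, LUM included, and the whole array gave 12 and 5 calls. Without replicate 2 ADAM12 did not pass (adjusted p = 0.0543 in limma).

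MMP9, the other gelatinase, was at -0.10, 0.80, -0.33 and -0.27, highest on replicate 2 like TIMP1. Its mean was 0.03 ± 0.52 (SD, n = 4; adjusted p = 0.926 in limma), and without replicate 2 it was -0.23 (adjusted p = 0.0462). PLAU, the urokinase-type plasminogen activator, was at 0.09 ± 0.16 (adjusted p = 0.347 in limma). The probes of MMP3, MMP13 and TIMP4 were not well above background on any array, and that of RECK, a membrane-anchored MMP inhibitor, was so on 1 array in the treated channel. Among the markers, PAX7, COL1A1, PTPRC, CD163 and PLIN1 were not found by symbol.

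**Figure D4:**
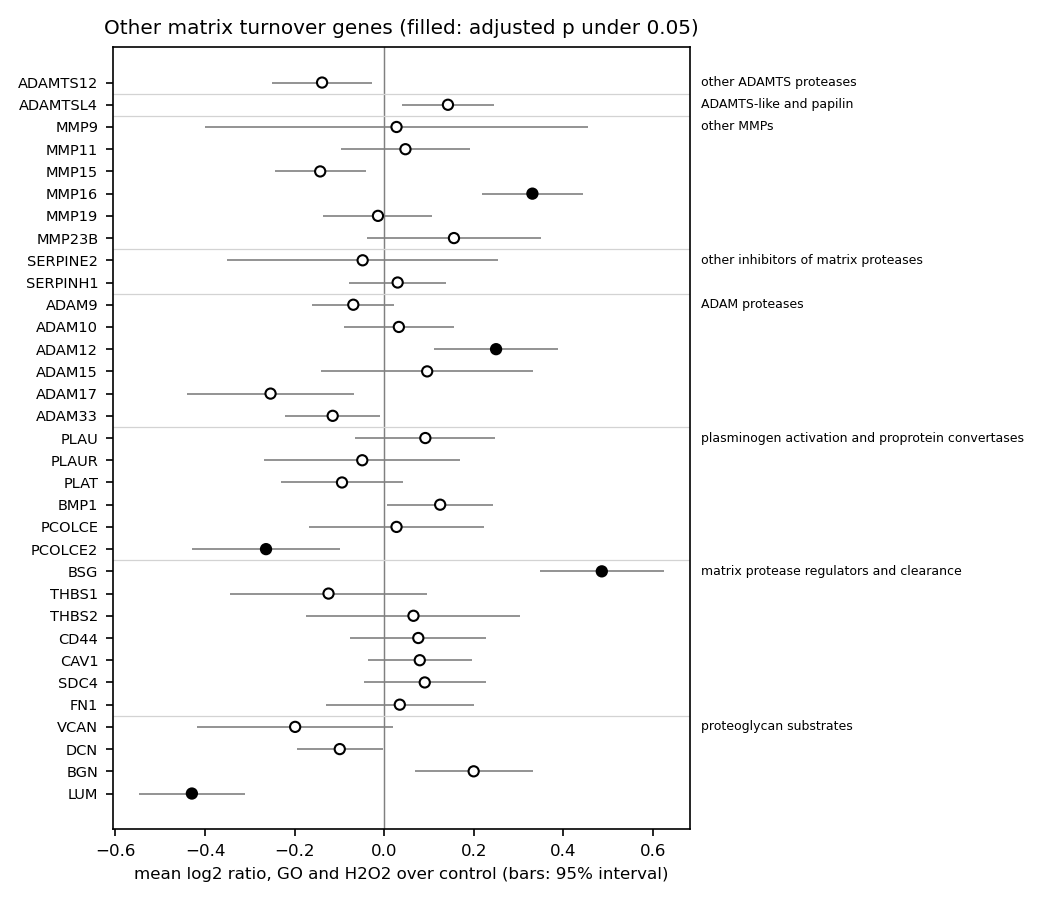
Mean log2 ratio of treated over control with its 95% interval (horizontal axis) for the 33 tested genes of the wider matrix turnover lists, grouped by list, with filled points for an adjusted p under 0.05. BSG at 0.49 and LUM at -0.43 lie farthest from 0.

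Markers of muscle and of other cells moved in places and were read beside these results. Of 9 tested muscle markers 6 rose (MYOG, MYH3, MYH8, ACTC1, TNNT3 and CKM), with a median log2 ratio of 0.33 over the list. Over the whole array, with 1 probe per gene name, 9.93% passed higher and 7.16% lower. Of 4 tested fibroblast markers THY1 rose by 0.28 and LUM fell by 0.43, while the PDGFRA probes did not pass the filter. Of 2 tested macrophage markers CD14 fell by 0.17 and CD68 was at 0.0049 (adjusted p = 0.942 in limma), and CSF1R was not well above background. None of the endothelial markers PECAM1, VWF, CDH5 and KDR and neither of the adipocyte markers ADIPOQ and FABP4 was well above background on any array. Of the smooth muscle and pericyte markers, ACTA2 and CSPG4 did not pass the test, MYH11 was above background on 1 array in 1 channel and RGS5 on none. The part of the cell mixture in the protease and inhibitor ratios was not tested.

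Per array and channel, 54.9% to 61.4% of gene spots passed as well above background. The log2 ratios of all tested probes correlated between arrays with r from 0.174 (replicates 2 and 3) to 0.697 (replicates 3 and 4), across probes, which are not independent. Precision is limited by there being 4 arrays.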

How the data were processed

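The deposited files hold, per array, mean and background spot intensities of both channels and processed intensities, taken by the authors with Agilent Feature Extraction 10.10.1.1 per the file headers. Log10 ratios as deposited compare processed red with processed green, after background subtraction and dye normalisation, and the authors' series matrix held the same log10 values (largest difference 0). Other columns used were flags, names and positions in EquCab1. Sequences were read from the deposited probe column.

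Mean intensities were corrected with normexp (offset 50), normalised by loess within arrays with control spots at weight 0, and averaged per probe without outlier-flagged spots, in limma 3.58.1 under R 4.3.3. Probes well above background on all 4 arrays in red or in green were kept (24230 of 43603, 55.6%). The mean log2 ratio was tested against 0 with lmFit and eBayes, two-sided, with Benjamini-Hochberg adjustment at 0.05 over all kept probes. Both RNAs share each array, which is the block. The fit was tested on simulated data. Positions refer to EquCab1, and probes of a gene are numbered along the transcript. The accession-named list genes were found by their description (7 of 71).

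The members and lists were chosen with earlier results of these data known. Named were all member probes, MMP3, MMP9, MMP13, TIMP4, RECK, PLAU and VCAN in any case (a further gene of the rule is not reported here), up to 10 other list genes past the threshold with the smallest p, and markers that passed or were not well above background. For a list gene the brightest kept probe stood for the gene. Alternatives were other background corrections, normalisations, filters, variance models, a fit of both channels as separate samples, the Student test of the study's methods, a fold limit of 1.3, gene means, and leaving out each replicate.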

Additional observations from a re-analysis of the deposited data

Results flagged for a closer look

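MMP2 probe 2 had a log2 ratio of 0.32 on replicate 3, apart from the other arrays, which lay between 0.04 and 0.07. The gap made up 0.87 of its whole range, above the 95% limit of Dixon's test for 4 values. The test was run on 40 probes and marked 1, and chance marks about 1 in 20. The ratios of TIMP1 on replicate 2 did not exceed this limit, with gaps of 0.674 to 0.772 of the range.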

How the results depend on the processing

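The number of member probes past the threshold was 1 as reported and also 1 on Agilent's processed signals, on the series matrix values, with normexp at offset 0, with a running median taken off, under both other filters and with limma's trend and robust options. In these settings 12.2% to 18% of all tested probes passed. It was 3 without background correction (ADAMTS3 probe 3, MMP2 probe 1 and MMP14 probe 2) and 2 with array weights (ADAMTS3 probe 3 and MMP14 probe 2). Of all tested probes 17.9% and 20.3% passed in these runs. It was 0 with median centring, with no replicate block (the 2 channels as 8 separate samples), in the methods' t-test and with the fold limit of 1.3, and an unadjusted p under 0.05 was left for 1, 1, 3 and 3 probes. With no replicate block 2.45% of all tested probes passed, and in the methods' t-test 5 probes of the whole array did. Leaving out 1 replicate gave 0 to 3 probes: 3 without replicate 2 (ADAMTS3 probe 3 and both MMP14 probes) and 0 without replicate 1, 3 or 4, where the whole array gave 2, 38 and 0 calls. Without replicate 2 the share over all tested probes was 16.1%. The other matrix turnover genes past the threshold were 5 as reported, 0 with median centring, 3 with no replicate block (without ADAM12 and PCOLCE2), 0 in the methods' t-test and 0 to 6 without 1 replicate. With median centring 12 probes of the whole array passed, all 12 higher, against 2299 higher of 4137. MMP9 turned from 0.03 to -0.23 without replicate 2, and reached 0.15 without replicate 3. Over 519 recomputed ratios of member and ADAMTS2 probes and of their gene means, 42 that passed in neither setting changed sign, 7 lost and 5 gained the call, and no called ratio changed direction. The cause of these shifts was not tested. Both channels of the MMP1 probes were too dim to bound a difference, and the MMP14 ratios moved from -0.29 and -0.38 to -0.75 and -1.11 on Agilent's processed signals.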

Other observations

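Beyond the genes named by rule, SERPINE2 and PLAUR, chosen after their values were seen, were also highest on replicate 2. So were other list genes, among them ADAM10, ADAM12, MMP16, PLAT and SDC4. The share of all tested probes that were highest on that array was not counted. SERPINE2, an inhibitor of thrombin and plasminogen activators, had log2 ratios of -0.16, 0.49, -0.31 and -0.21 (adjusted p = 0.808 in limma, n = 4 arrays). PLAUR, the receptor of urokinase, had -0.16, 0.32, -0.23 and -0.14 (adjusted p = 0.728). BGN, biglycan, chosen in the same way, was above 0 on all 4 arrays, at 0.11, 0.19, 0.38 and 0.12 (adjusted p = 0.0519 at its brightest probe), and 2 of its 3 probes passed.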
